A study of Mus musculus with 6 samples.

Results

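Hedgehog signalling between granulosa and theca cells was examined through 10 genes: the ligand genes Ihh and Dhh, the receptor genes Ptch1 and Hhip, the transducer gene Smo, the transcription factor genes Gli1 and Gli2, and the theca cell genes Cyp17a1, Insl3 and Nr2f2. They were chosen by name, and each symbol matched 1 of the 49315 genes in the count tables. RNA came from fresh ovarian granulosa cells of female mice aged 8 to 9 weeks, with C57BL/6J given as the strain of all 6 libraries. Of these, 3 are labelled WT (wild type) and 3 KO, a Jmjd3 knockout that by design is specific to granulosa cells, so theca cells are not meant to lose the gene. The Cre driver, the floxed exons, any hormone treatment and the number of animals per library are not stated by the labels, so p-values measure the spread between libraries, which may be technical.

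In the hedgehog pathway, a secreted ligand binds the membrane protein Patched and so frees Smoothened, which acts in the primary cilium to let GLI transcription factors switch on their targets. Ptch1, Gli1 and Hhip are themselves such targets, so their RNA is widely used to read pathway activity. In the mouse ovary, granulosa cells of growing follicles make IHH and DHH, and the signal is received by neighbouring mesenchymal cells that become the androgen-making theca layer. JMJD3, encoded by Kdm6b, removes methyl groups from lysine 27 of histone H3, a repressive mark that in mammals lies mostly over promoters rich in CpG dinucleotides.

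The promoters of both ligand genes and of the theca gene Insl3 differ in this feature, and the 250 bases before each RefSeq start are shown for that reason, 5′ to 3′ on the gene's strand, from RefSeq on GRCm38.p6. Capitals mark each CpG. RefSeq's start can differ from that of the gene as counted: the Insl3 window runs past the counted start into the gene. Ihh lies at chr1:74951673-74951922 and Dhh at chr15:98898541-98898790, both on the minus strand, and Insl3 at chr8:71689002-71689251 on the plus strand.
Ihh: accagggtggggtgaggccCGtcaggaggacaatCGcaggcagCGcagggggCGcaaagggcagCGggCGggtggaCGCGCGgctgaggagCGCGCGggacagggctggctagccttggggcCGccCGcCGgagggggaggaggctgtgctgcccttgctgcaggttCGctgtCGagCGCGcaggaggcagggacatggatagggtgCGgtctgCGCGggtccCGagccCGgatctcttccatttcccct
Dhh: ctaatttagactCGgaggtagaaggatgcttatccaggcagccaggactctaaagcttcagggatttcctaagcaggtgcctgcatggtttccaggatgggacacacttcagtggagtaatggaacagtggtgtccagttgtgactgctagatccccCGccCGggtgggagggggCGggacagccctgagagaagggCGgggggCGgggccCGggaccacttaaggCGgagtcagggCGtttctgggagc
Insl3: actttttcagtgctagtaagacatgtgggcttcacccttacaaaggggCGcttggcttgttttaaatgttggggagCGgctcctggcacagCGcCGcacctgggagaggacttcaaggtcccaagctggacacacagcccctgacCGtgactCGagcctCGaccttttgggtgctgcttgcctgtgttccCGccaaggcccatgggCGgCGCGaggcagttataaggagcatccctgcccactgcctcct

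The Ihh window holds 24 CpG, more than 88.0% of the 32851 promoters in the RefSeq table, whose median is 6.00. Dhh has 9 CpG and Insl3 has 11. Of the 10 genes, 8 have an entry, and Gli1 and Cyp17a1 have none. The richest is Ptch1 with 41 CpG, though its window (63565736 to 63565985 of chromosome 13) lies inside the gene as counted. Next come Hhip with 28, Gli2 with 22 and Smo with 15. Nr2f2 has 1 CpG in its window and stands below the other members that have an entry.

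Counts summed to between 42379018 and 49901493 per library, and levels are given in CPM, counts scaled to library size, of which 1 stands for 42.5 to 51.4 counts. The KO label was not matched by less Kdm6b RNA, with 72.8, 66.3 and 66.2 CPM for the WT libraries and 64.7, 68.6 and 112 CPM for the KO libraries (edgeR adjusted p = 0.755). Counts over the whole gene keep reads from exons that were not removed, so the genotypes rest on the labels. Fshr, the follicle-stimulating hormone receptor gene that marks granulosa cells, lay between 113 and 146 CPM in all 6 libraries. Cells of other types were present too: oocyte genes summed to 568 to 870 CPM and endothelial genes to 160 to 318 CPM. In such bulk RNA, fewer cells of a type and less RNA per cell cannot be told apart.

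None of the 10 genes passed the test between groups. In edgeR's quasi-likelihood test 0 of 10 were called at an adjusted p under 0.05, where 0.219% of the 18250 genes tested were called. At an unadjusted p under 0.05 there were 2, Cyp17a1 and Insl3, beside 9.16% of all genes tested. DESeq2 and limma-voom also called 0, beside 1.21% and 0.395% of all genes tested. The groups did not overlap for 3 of the 10 (Cyp17a1 and Insl3 higher in KO, Gli1 lower), as they did not for 15.6% of all genes tested. The 10 fold changes (log2, KO minus WT) had a median of 0.07, beside 0.00 over all genes tested.

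**Figure D1:**
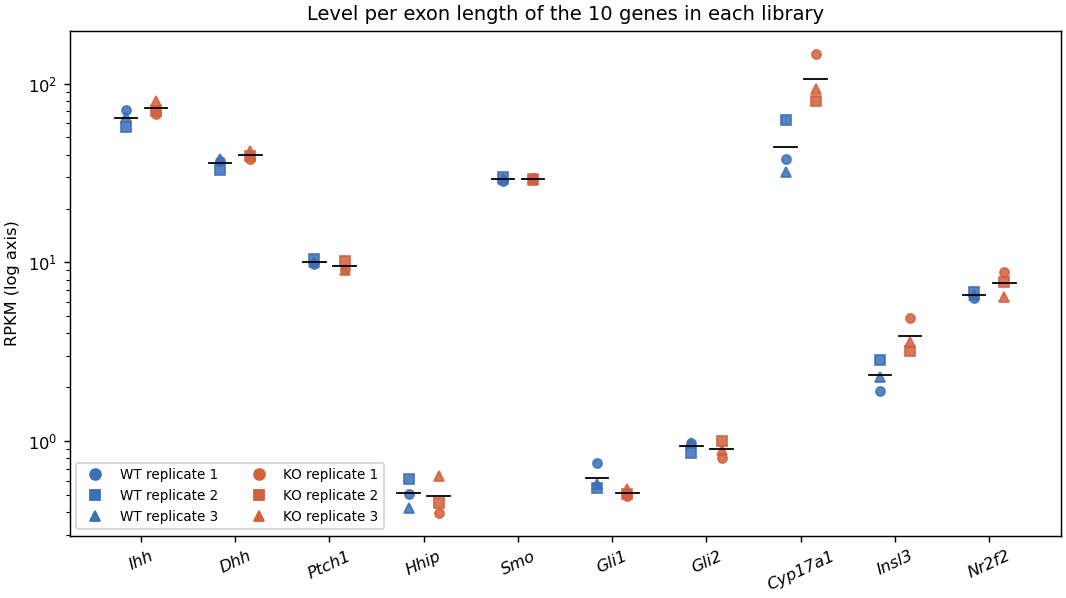
Level of each of the 10 genes in reads per kilobase of exon, scaled to library size (RPKM, log axis), in 3 WT libraries (blue) and 3 KO libraries (orange). Each symbol is a library and each black line a group mean. The ligand genes and Smo stand near 29 to 73 RPKM with little spread, Gli1, Gli2 and Hhip near or below 1, and Cyp17a1 and Insl3 spread most.

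Both ligand genes were strongly expressed. Scaled to exon length, Ihh had a mean level of 64.5 ± 7.09 RPKM in WT (SD, n = 3), higher than 95.7% of genes tested, and Dhh had 35.8 ± 2.58 RPKM, higher than 91.8%. The ligand gene Shh was near the limit of detection, at 0 to 0.168 CPM in the 6 libraries, and was not tested.

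Ihh, on chromosome 1 from 74945315 to 74951672 (GRCm38, minus strand), had 217, 174 and 199 CPM in WT, replicates 1 to 3 in turn, as against 206, 215 and 244 CPM in KO. The groups overlapped, with WT replicate 2 lowest and KO replicate 3 highest. The log2 fold change was 0.17 ± 0.10 (SE; 95% interval -0.05 to 0.40; edgeR adjusted p = 0.636), so a rise of more than 0.40 or a fall of more than 0.05 lies outside the interval. Dhh, on chromosome 15 from 98893031 to 98898540 (minus strand), stood at 86.7, 77.6 and 89.2 CPM in WT, as against 88.9, 92.9 and 99.4 CPM in KO. WT replicate 2 was again lowest and KO replicate 3 again highest. Its log2 fold change was 0.15 ± 0.08 SE (95% interval -0.02 to 0.32, edgeR adjusted p = 0.594). The mix of the ligands was steady: Ihh exceeded Dhh per exon length 1.94, 1.73 and 1.73 times in WT and 1.80, 1.79 and 1.90 times in KO. The difference of mean log2 ratios was 0.02 (two-sided exact permutation test, p = 0.600, where 3 against 3 allows no p under 0.10).

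The genes that free and carry the ligand were measured with them. Disp1, which releases the lipid-bound ligand from its source cell, had 33.9 CPM in WT, as against 34.1 CPM in KO. Scube1, whose product helps to shed the ligand, was at 76.5 and 74.2 CPM, and Hhat, the acyltransferase that adds the ligand's palmitate, at 15.3 and 15.8 CPM. None of the 6 genes of this kind that were tested passed, and their log2 fold changes lay between -0.17 and 0.05.

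Among receptors, Ptch1 (chromosome 13, 63508328 to 63573598, minus strand) stood at 85.8, 91.8 and 88.2 CPM in WT, as against 80.4, 89.3 and 79.0 CPM in KO. KO replicate 2 lay within the WT range and the other KO libraries below it, with a log2 fold change of -0.10 ± 0.07 SE (95% interval -0.25 to 0.06, edgeR adjusted p = 0.703). Hhip, which encodes a membrane decoy that binds and retains ligand, was low at 4.57, 5.56 and 3.85 CPM in WT, as against 3.60, 4.10 and 5.75 CPM in KO. It lies on chromosome 8 from 79965851 to 80058006 (minus strand), and its KO range took in the WT range (-0.05 ± 0.21 SE, edgeR adjusted p = 0.956). Smo (chromosome 6, 29735503 to 29761365, plus strand) was the steadiest of the 10: every library lay between 161 and 168 CPM. Its log2 fold change was 0.00 ± 0.06 SE, with a 95% interval of -0.15 to 0.14.

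The RNA of the transcription factor genes was scarce beside that of the ligand genes. Gli1, on chromosome 10 from 127329889 to 127341589 (minus strand), stood at 2.76, 1.99 and 2.10 CPM in WT, as against 1.81, 1.86 and 1.97 CPM in KO, from 79 to 142 counts per library. All 3 KO libraries lay below all 3 WT libraries, but KO replicate 3 and WT replicate 2 had 95 counts each. The log2 fold change was -0.28 ± 0.18 SE (95% interval -0.69 to 0.13, edgeR adjusted p = 0.672). Its exons share 55 bases with Arhgap9 on the opposite strand. Gli2, the main GLI activator in mouse development, stood at 6.73, 5.86 and 6.74 CPM in WT, as against 5.55, 6.90 and 6.15 CPM in KO, with overlapping groups. It spans 118834132 to 119053619 of chromosome 1 (minus strand) and had a log2 fold change of -0.06 ± 0.13 SE (edgeR adjusted p = 0.924).

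Per exon length, the WT order from high to low was Ihh, Cyp17a1, Dhh, Smo, Ptch1, Nr2f2, Insl3, Gli2, Gli1 and Hhip. In WT the library ranges overlapped between Ihh and Cyp17a1, between Cyp17a1 and Dhh, and between Gli1 and Hhip, and other neighbours did not overlap. In KO the order was the same except that Cyp17a1 (80.3 to 146 RPKM) stood above Ihh (67.5 to 79.9 RPKM), and only Gli1 and Hhip overlapped. The place of Insl3 is uncertain in both groups, as 404 of its 623 exon bases also belong to Jak3 on the same strand. Gli1 lay above 25.2% of genes tested in WT and Hhip above 22.6%, while Ptch1, also a hedgehog target, lay above 71.3%.

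**Figure D2:**
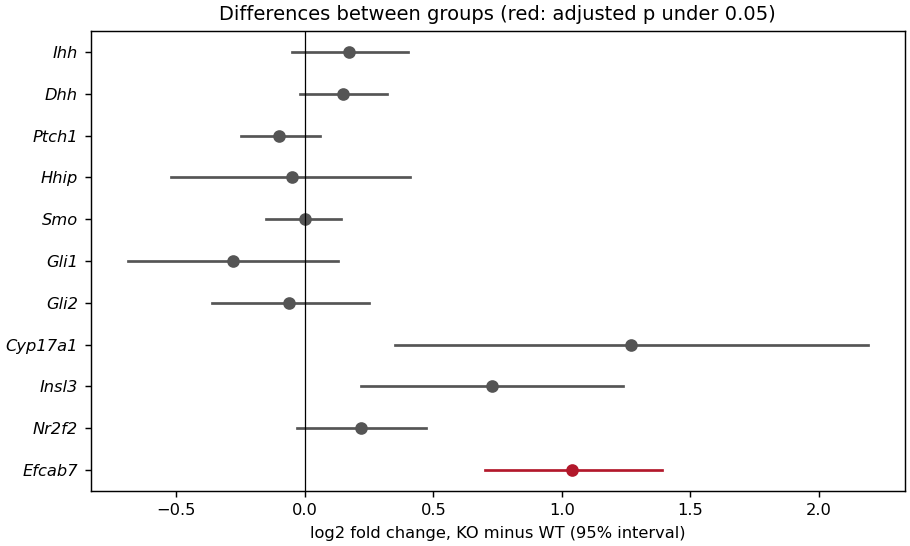
Log2 fold change, KO minus WT, of the 10 genes and of Efcab7, with 95% intervals from edgeR's fit across 18250 genes. The intervals of Cyp17a1 (0.35 to 2.19) and Insl3 (0.22 to 1.24) lie above 0 although neither passed after adjustment over all genes, and Efcab7, in red, passed.

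Of the 10 genes, Cyp17a1 and Insl3 had the fold changes of greatest size, though neither passed. Cyp17a1 encodes the enzyme that turns progestins into androgens and lies on chromosome 19 from 46667165 to 46672974 (minus strand). It stood at 82.0, 135 and 69.6 CPM in WT, as against 316, 174 and 203 CPM in KO. Every KO library was above every WT library, with KO replicate 1 far above the rest and WT replicate 2 nearest to the KO group. The log2 fold change was 1.27 ± 0.36 SE (2.41-fold, 95% interval 0.35 to 2.19, edgeR adjusted p = 0.432), and with any 1 of the 6 libraries left out it still did not pass (adjusted p from 0.349 to 0.731).

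Insl3, which encodes an insulin-like hormone made by theca cells and by Leydig cells of the testis, was low but in nearly the same order. It stood at 1.19, 1.76 and 1.43 CPM in WT, as against 3.03, 1.98 and 2.22 CPM in KO, from 61 to 142 counts per library. KO replicate 1 was again highest, followed by KO replicate 3, KO replicate 2 and WT replicate 2, as for Cyp17a1. The log2 fold change was 0.73 ± 0.23 SE (95% interval 0.22 to 1.24, edgeR adjusted p = 0.377). Insl3 lies on chromosome 8 from 71689214 to 71690575 (plus strand), and 404 of its 623 exon bases (64.8%) also belong to exons of Jak3 on the same strand. No label says how reads over shared exons were counted, so the level of Insl3 is uncertain. Jak3 itself had 362, 268 and 393 counts in WT and 370, 325 and 244 counts in KO, a different order from that of Insl3.

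The count of Cyp17a1 was 69.0, 76.8 and 48.7 times that of Insl3 in WT and 104, 87.9 and 91.2 times in KO. All 3 KO ratios were higher, a difference of 0.56 in mean log2 ratio (two-sided exact permutation test, p = 0.10, the smallest that 3 against 3 allows). Without WT replicate 3 the difference was 0.37, and without WT replicate 2 it was 0.70. Nr2f2, which encodes the orphan receptor COUP-TFII of theca and stromal cells, stood at 54.8, 58.8 and 56.5 CPM in WT, as against 76.3, 66.9 and 55.0 CPM in KO. KO replicates 1 and 2 were above the WT range and KO replicate 3 inside it. Its log2 fold change was 0.22 ± 0.11 SE (edgeR adjusted p = 0.591), but single libraries moved it: it was 0.34 without KO replicate 3 (adjusted p = 0.0295) and 0.10 without KO replicate 1 (adjusted p = 0.809). Nr2f2 spans 70351944 to 70366735 of chromosome 7 (minus strand) and shares 643 exon bases with B130024G19Rik on the opposite strand.

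Of 10 other genes of theca and interstitial cells, 0 passed in edgeR, where 0.219% of all genes tested did. At an unadjusted p under 0.05 there were 4, beside 9.16% of all genes tested. DESeq2 called 2 (Star and Aldh1a1), beside 1.21% of all genes, and limma-voom 1 (Star), beside 0.395%. The median log2 fold change was 0.36, beside 0.00 over all genes tested. Star, which delivers cholesterol to the mitochondrial enzymes, stood at 387, 340 and 392 CPM in WT, as against 1165, 760 and 617 CPM in KO, without overlap (1.18 ± 0.23 SE, edgeR adjusted p = 0.212). The retinaldehyde dehydrogenase gene Aldh1a1 stood at 665, 810 and 703 CPM in WT, as against 1376, 975 and 1164 CPM in KO, also without overlap (0.69 ± 0.14 SE, edgeR adjusted p = 0.125). Aldh1a1 followed the KO order of Cyp17a1, while Star had KO replicate 3 lowest of the KO group. Without KO replicate 3 both passed (adjusted p = 0.0106 for Star and 0.0277 for Aldh1a1), but calls over all genes then rose from 40 to 421. Star also passed without KO replicate 1 (0.0334). With another library left out, edgeR adjusted p reached 0.662 for Star and 0.630 for Aldh1a1.

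The luteinizing hormone receptor gene Lhcgr (0.63 ± 0.23 SE, edgeR adjusted p = 0.486) and Hsd3b1, which completes progesterone synthesis (0.42 ± 0.18 SE, adjusted p = 0.521), had KO libraries inside the WT range. Star, Lhcgr, Hsd3b1 and Cyp11a1 are also made by mural granulosa and luteal cells, so they are not particular to theca. The mesenchymal receptor gene Pdgfra, named after its values were seen, had a fold change below 0, at 34.7, 42.0 and 45.3 CPM in WT, as against 36.2, 32.9 and 21.7 CPM in KO (-0.43 ± 0.20 SE, adjusted p = 0.589). Tcf21, a mesenchymal and theca progenitor gene, had 11.0 CPM in WT, as against 9.98 CPM in KO.

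**Figure D3:**
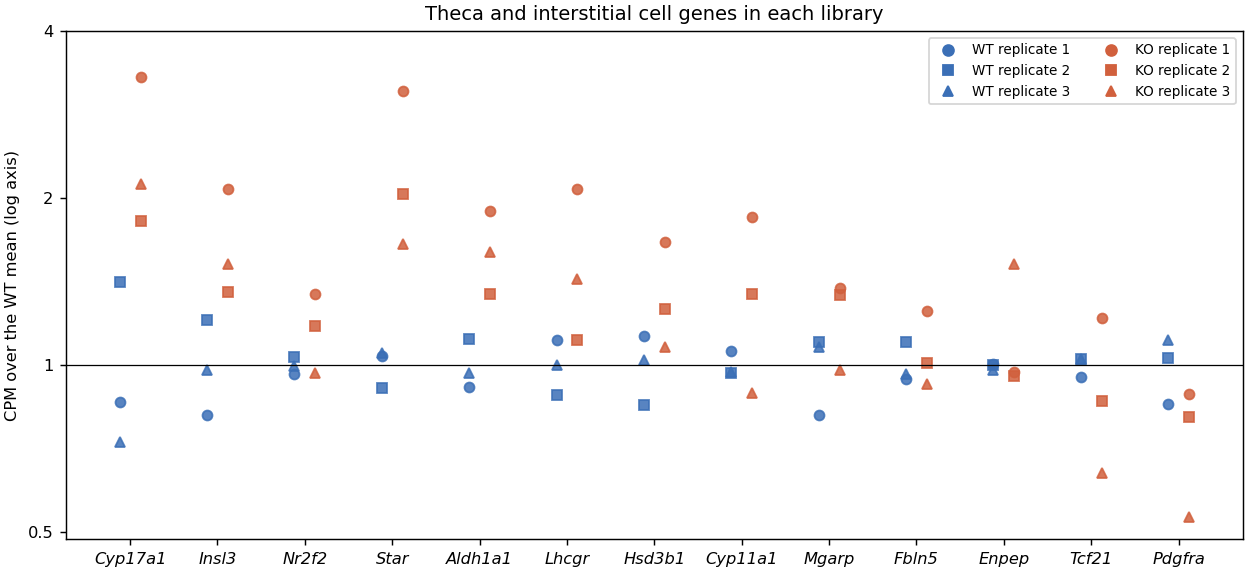
CPM of Cyp17a1, Insl3, Nr2f2 and the 10 listed theca and interstitial cell genes in each library, divided by the WT mean of the gene (log axis, black line at 1). KO replicate 1 (orange circle) is highest of all libraries for each gene but Enpep and Pdgfra, KO libraries lie above all WT libraries for Cyp17a1, Insl3, Star and Aldh1a1, and KO replicate 3 (orange triangle) is highest for Enpep and lowest of all for Cyp11a1, Fbln5, Tcf21 and Pdgfra.

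Markers of other cells moved with some of these libraries. The 10 endothelial genes summed to 186 to 221 CPM in WT and to 318, 231 and 160 CPM in KO replicates 1 to 3, and the 9 stromal fibroblast genes to 1064 to 1288 CPM in WT and to 1425, 1158 and 766 CPM in KO. KO replicate 1 was thus highest and KO replicate 3 lowest in both lists, the order of Nr2f2 in the KO group. Immune cell genes (310 to 405 CPM in WT, then 481, 369 and 249 CPM in KO) and smooth muscle genes (270 to 284 CPM, then 366, 288 and 232 CPM) had that order too. For Cyp17a1 and Insl3, KO replicate 3 stood above KO replicate 2, unlike in these 4 lists. Summed levels of 7 red blood cell genes were 383 to 798 CPM in WT, as against 2260, 1339 and 830 CPM in KO, with all 7 genes higher in every KO library than in any WT library, where 15.6% of all genes tested did not overlap in either direction. Those of 7 luteal genes were 6236 to 8277 CPM and 13945, 9948 and 8041 CPM. Granulosa genes summed to 10640 to 11924 CPM in WT and to 12481, 11829 and 17094 CPM in KO, and surface epithelium genes to 521 to 744 CPM and 618, 573 and 438 CPM. In these lists Amhr2 (granulosa, -1.01 ± 0.09 SE, edgeR adjusted p = 0.00212) and Slc4a1 (red blood cell, 2.13 ± 0.32 SE, adjusted p = 0.0406) were called. The call of Amhr2 was lost without WT replicate 2 (adjusted p = 0.0542). That of Slc4a1 was lost without any library but KO replicate 3 (adjusted p up to 0.297), with upper quartile scaling (0.0555) and with the replicate number as a block (0.142). No marker list was at 0 in any library. The part of any of these cells in the levels of Cyp17a1, Insl3 or Nr2f2 was not tested.

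Among the other pathway genes, Efcab7 rose and no other gene passed. Of 35 listed, 33 were tested (Shh and Foxf2 were too low), and 1 was higher and 0 were lower in edgeR. An unadjusted p under 0.05 was reached by 2, beside 9.16% of all genes tested. The median log2 fold change was -0.02, beside 0.00 over all genes tested, and 8 of the 33 (24.2%) did not overlap between groups (5 higher, 3 lower), beside 15.6% of all genes tested. Calls in edgeR made up 0.219% of all genes tested. The list was made with the call of Efcab7 known, so its count is no independent evidence.

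Efcab7 encodes a ciliary protein that, with IQCE, anchors the EVC-EVC2 complex through which active Smoothened signals. It stood at 3.74, 2.67 and 3.49 CPM in WT, as against 7.04, 6.78 and 6.60 CPM in KO, with a wide gap between the groups. The rise was 2.06-fold (log2 1.04 ± 0.16 SE, 95% interval 0.70 to 1.39, edgeR adjusted p = 0.0386). Leaving out any library but KO replicate 3 ended the call (adjusted p from 0.106 to 0.256, fold change from 0.90 to 1.14), and with the replicate number as a block the adjusted p was 0.110. Evc, a subunit of that complex, stood at 22.5, 21.4 and 21.4 CPM in WT, as against 26.0, 25.8 and 26.0 CPM in KO. Its groups were also apart, but its log2 fold change of 0.25 ± 0.07 SE did not pass (edgeR adjusted p = 0.304). The partner genes Evc2 (125 CPM in WT, 129 CPM in KO) and Iqce (24.1 and 22.5 CPM) did not pass either.

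**Figure D4:**
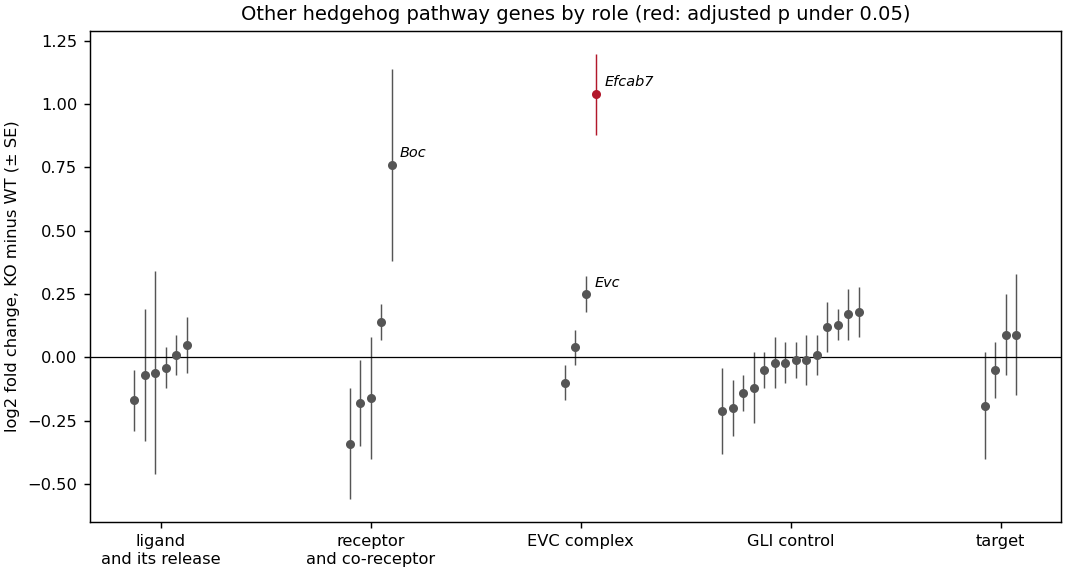
Log2 fold change, KO minus WT, with SE, of the 33 other hedgehog pathway genes tested, grouped by role and ordered by size within each role. Efcab7 (1.04, red) passed at an adjusted p under 0.05, Boc (0.76) has a wide error, and the other genes lie between -0.34 and 0.25.

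The co-receptor gene Boc, named after its values were seen, was far higher in a single library than in the rest. It stood at 22.4, 23.4 and 24.6 CPM in WT, as against 29.2, 26.2 and 63.4 CPM in KO, without overlap. Its log2 fold change of 0.76 ± 0.38 SE (edgeR adjusted p = 0.621) became 0.24 without KO replicate 3. Cdon, a related co-receptor that helps ligand bind Patched, stood at 43.0 and 47.3 CPM (0.14 ± 0.07 SE, adjusted p = 0.582). Gas1, another co-receptor, was lowest in KO replicate 3 at 56.2 CPM against 78.1 to 103 CPM in the other libraries. The kinase gene Grk2, whose product phosphorylates Smoothened, was measured at 66.8 CPM in WT, as against 73.1 CPM in KO, and did not pass either (0.13 ± 0.06 SE, adjusted p = 0.55). The target genes Mycn, Ccnd1, Bcl2 and Foxf1 had log2 fold changes between -0.19 and 0.09 (Ccnd1 shares 1100 exon bases with LTO1 on the opposite strand, so its value is uncertain). Gli3, which acts mainly as a repressor, was low at 3.48 and 3.01 CPM, which per exon length is 0.363 RPKM in WT beside 0.624 RPKM for Gli1, and Sufu, which holds GLI proteins in the cytoplasm, stood at 50.3 and 56.9 CPM.

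The genes that build or serve the primary cilium did not pass as single genes. Of 20 tested, 0 passed in edgeR, DESeq2 or limma-voom, beside 0.219%, 1.21% and 0.395% of all genes tested. The median log2 fold change was -0.03, and 1 gene had an unadjusted p under 0.05, beside 9.16% of all genes tested. That gene was Bbs4, a subunit of the BBSome that carries receptors out of the cilium. It stood at 25.1, 27.7 and 27.4 CPM in WT, as against 21.0, 21.6 and 22.9 CPM in KO, without overlap (-0.29 ± 0.08 SE, edgeR adjusted p = 0.285). The intraflagellar transport genes Ift88 (-0.12 ± 0.08 SE), Ift172 (0.12 ± 0.08 SE) and Ift52 (-0.08 ± 0.07 SE) had adjusted p from 0.669 to 0.749.

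For Ihh, Gli1 and Cyp17a1, the genes with the most similar course over the 6 libraries were taken by the smallest root mean square difference of centred log2 CPM among 11178 genes (11179 for Gli1). Large2 was nearest to Ihh, with a difference of 0.0233: it stood at 66.0, 54.8 and 64.1 CPM in WT, as against 64.2, 67.2 and 76.8 CPM in KO, followed by Ralgps1 (0.0408) and Zfp933 (0.0424). Among those nearest to Gli1 were Zfp976 (0.0504) and Cenpl (0.0639). Nearest to Cyp17a1, at larger differences, were Oca2 (0.197), Aoc3 (0.217) and Fam213a (0.249). Oca2 stood at 4.61, 6.32 and 4.42 CPM in WT, as against 17.8, 11.8 and 14.2 CPM in KO, with all 6 libraries in the same order as for Cyp17a1. Oca2 was chosen for this likeness, so its order and its log2 fold change of 1.51 follow from the choice and are given as a description.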

How the data were processed

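The authors deposited whole-number counts per gene, not normalized, for each of the 6 libraries. The genome build GRCm38 and the tools Subread 1.5.2 (featureCounts), STAR 2.5.2b and Trimmomatic 0.36 are named in the submitters' processing notes. The annotation release, the strand setting and the handling of reads over several genes are not given in these sources. Gene IDs were matched to symbols in GENCODE M21 (49056 of 49315 matched, 91.4% of them with the same start and end), and coordinates are those of the count files, from 1.

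Groups and replicate numbers came from the labels. Counts were fitted in edgeR 4.0.16 (R 4.3.3): filterByExpr kept 18250 genes, libraries were scaled by TMM, and the robust quasi-likelihood test compared KO with WT, and genotype was its only term. P-values were Benjamini-Hochberg adjusted over all genes kept, and a gene was called under 0.05. CPM use TMM-adjusted library sizes, RPKM also the deposited exon length in bases, and log2 CPM a prior count of 2. Replicates of a group differed beyond sampling noise (chi-square per degree of freedom from 17.0 to 96.8). Same-numbered WT and KO libraries did not deviate together, but so few correlations cannot settle whether the numbers pair the samples. The main fit took the libraries as unpaired. The steps were tested on simulated data. They recovered 35.8% of genes changed 1.5-fold, 80.6% of those changed 2-fold and 90.9% of those changed 4-fold. False calls were 10.4%, above the adjusted p threshold of 0.05. These shares are over genes drawn from all those tested. A gene that did not pass may therefore still have changed by 1.5-fold, and also by 2-fold or 4-fold, and a single call may be false.

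The members and lists were chosen with earlier results of these data known. The rule named the 10 members, Efcab7, Kdm6b and Fshr, the 4 genes of each other list with the smallest p, and the 3 genes most similar to Ihh, Gli1 and Cyp17a1 (mean of at least 5 CPM). Cell markers other than theca genes are given as sums of CPM, and other genes were named after their values were seen. Some genes that the rule or lists take in are not reported here. Alternatives were RLE and upper quartile scaling, DESeq2 1.42.0, limma-voom (limma 3.58.1), no filter, a mean of at least 1 CPM, the replicate number as a block and leaving out each library. Promoters are RefSeq's on GRCm38.p6.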

Additional observations from a re-analysis of the deposited data

How the results depend on the processing

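The members called stayed at 0 in all 13 alternative fits but the fit without KO replicate 3, where 1 (Nr2f2) was higher, so the range over fits without a library was 0 to 1. Among all genes tested, 40 were called, against 220 in DESeq2, 72 in limma-voom, 199 with no filter, 21 at a mean of at least 1 CPM, 15 with the replicate block and 8 to 421 without a library (421 without KO replicate 3). The pathway count of 1 (Efcab7) became 0 with upper quartile scaling, at a mean of at least 1 CPM, with the replicate block and without each library but KO replicate 3 (range 0 to 1). The theca count of 0 became 2 in DESeq2, 1 in limma-voom, 1 with no filter and 0 to 3 without a library.

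Some signs changed. Smo was 0.01 in limma-voom and -0.02 to 0.01 without a library, Gli2 0.02 and -0.14 to 0.01, and Hhip -0.28 to 0.08 without a library. Ranges without a library also crossed 0 for Ptprc (0.00 to 0.42), C1qa (-0.07 to 0.38), Itgam (-0.08 to 0.46), Acta2 (-0.03 to 0.24), Kdm6b (-0.04 to 0.40), Fshr (-0.05 to 0.13) and Des (-0.33 to 0.07). The Ihh to Dhh ratio difference was -0.003 to 0.078 without a library. The Cyp17a1 to Insl3 difference was 0.37 to 0.70. The cause was not tested. Of 934 single-gene values, 869 kept direction and side of the threshold, 20 lost and 30 gained a call.

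Whether the replicate numbers pair the samples is not stated by the labels, and 3 correlations cannot settle it. Correlations of same-numbered deviations were -0.02, 0.07 and -0.03, and each WT library's best match was KO replicate 3, 2 and 1 in turn. With same-numbered libraries taken as pairs, the Cyp17a1 to Insl3 difference was 0.56 (exact sign flips, p = 0.250, the smallest that 3 pairs allow). Gli1 and Insl3 have the fewest counts of the members (61 to 142 per library), and the labels name no batch.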

Other observations

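The level of Ihh relative to Gli1, a ratio chosen after the values were seen and therefore given with no test, differed between the groups without overlap. Per exon length, Ihh exceeded Gli1 94.2, 105 and 114 times in WT replicates 1 to 3 and 136, 139 and 148 times in KO replicates 1 to 3. The same ratio of Ptch1 to Gli1 overlapped, at 13.0, 19.3 and 17.6 in WT and 18.6, 20.1 and 16.8 in KO. Smo exceeded Ptch1 2.91, 2.85 and 2.91 times in WT and 3.21, 2.88 and 3.18 times in KO, with KO replicate 2 inside the WT range. Gli1 rests on 79 to 142 counts per library, which limits the precision of the first 2 ratios.

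Of 12 oocyte genes 0 passed in edgeR and 8, Kit among them, had an unadjusted p under 0.05 (9.16% of all genes tested did). The groups did not overlap for 5, with 4 lower in KO and 1 (Kit) higher (15.6% of all genes tested did not overlap in either direction). Gdf9, whose product acts on granulosa cells, was at 160, 139 and 197 CPM in WT and 120, 118 and 125 CPM in KO, without overlap (-0.45 ± 0.12 SE, edgeR adjusted p = 0.283). Kit, made by both oocytes and theca cells, was at 37.3, 38.8 and 41.9 CPM in WT and 64.7, 54.6 and 47.0 CPM in KO (0.49 ± 0.11 SE, edgeR adjusted p = 0.214). KO replicate 1 was highest and KO replicate 3 lowest of the KO group. That is the KO order of the endothelial and stromal fibroblast sums, while Cyp17a1 had KO replicate 3 above KO replicate 2.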
